A study of Mus musculus with 12 samples.

Results

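The genes described here are the expressed genes of mouse whose symbol is Zfp, for zinc finger protein, followed by a number. Of 302 such genes measured on the arrays, 214 were kept and 88 were not, out of 20753 genes in all. The symbol Zfp36 was left out, since its protein belongs to another family of RNA-binding proteins. A gene was read from its brightest probe set, a probe set being the group of array probes that measures 1 transcript, and was kept if the highest of its 4 group means was at least 7 on the log2 scale. The genes were thus chosen by their levels on these same arrays. The genes just inside the threshold were Zfp963 with a highest group mean of 7.03, Zfp493 with 7.01 and Zfp458 with 7.005. Just outside were Zfp653 with 6.99, Zfp941 with 6.99 and Zfp358 with 6.95. All 4 group means were at least 7 for 165 of the 214 genes. The other 49 passed through their higher groups alone, so for them some difference between groups came with the choice. Of the genes named below in a comparison, 12 are among those 49: Zfp105, Zfp248, Zfp329, Zfp521, Zfp58, Zfp606, Zfp608, Zfp618, Zfp799, Zfp810, Zfp87 and Zfp949. Their differences and p-values are given as a description only.

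Zinc fingers are small folds in which cysteine and histidine residues hold a zinc ion, and rows of such fingers let a protein read a stretch of DNA. Many Zfp proteins of mammals also carry a KRAB domain, which binds the corepressor TRIM28 and through it the histone methyltransferase SETDB1, and they silence transposable elements, imprinted genes and other targets. Their genes often lie side by side as tandem copies, and a smaller number of Zfp proteins work outside DNA binding, on ribosomes, on RNA or as ubiquitin ligases.

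RNA was measured in mouse embryonic fibroblasts taken from embryos of 12.5 to 14.5 days and immortalized with SV40 large T antigen, a viral protein that blocks p53 and the retinoblastoma protein in all groups alike. The 4 groups were WT untreated, WT under arsenite, KO untreated and KO under arsenite, with 3 replicate arrays in each. The labels give the strain as B6.129P2-Ppp1r15A tm1.1.Ajf/Mmnc and C57Bl/6, for both genotypes alike, and the genotype as WT or GADD34 knockout. GADD34, the product of Ppp1r15a, directs protein phosphatase 1 to the translation factor eIF2 alpha and so reverses the stress-induced block of translation. Arsenite-treated cells had received 0.1 mM sodium arsenite for 2 h, and arsenite is a thiol-binding poison that sets off oxidative and heat shock responses. The labels do not say whether a genotype was more than 1 immortalized line, so genotype and line cannot be told apart. The p-values below measure the spread between replicate arrays, which the labels do not tie to separate embryos.

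Ppp1r15a itself read 8.45, 8.57 and 8.88 in untreated WT cells and 12.24, 12.25 and 11.60 under arsenite. In KO cells it read 6.42, 6.34 and 6.20 untreated and 6.27, 6.71 and 5.88 under arsenite, below every WT array. All 10 fibroblast markers examined were above a level of 5.35, the 40th percentile of all array values, in both WT groups, and 9 of 10 in both KO groups. The exception was Thy1, at a mean of 5.14 in untreated KO cells against 7.32 in untreated WT cells. Col1a2, a collagen chain gene, differed further and in the other direction, at 14.66 in untreated KO cells against 10.33 in untreated WT cells. The summed log2 level of 5 endothelial markers was 24.87 to 25.45 on the untreated WT arrays and 23.09 to 24.21 on the untreated KO arrays, and 24.99 to 26.26 against 24.23 to 24.68 under arsenite. Pecam1 and Cdh5 were under 5.35 in every group, and Kdr went from a mean of 7.79 in untreated WT to 6.62 in untreated KO cells. The sum of 6 neural markers was 39.94 to 40.84 in untreated WT and 38.67 to 40.19 in untreated KO cells, with Map2 at 9.06 and 7.49, Nes at 11.01 and 9.96 and Tubb3 at 7.72 and 8.95, while Sox2 was under 5.35 throughout. In the same 2 groups, 6 epithelial markers summed to 33.29 to 34.17 and 33.12 to 34.49, 6 blood markers to 29.94 to 31.55 and 29.64 to 30.04, 5 muscle markers to 27.78 to 28.81 and 27.60 to 27.95 and 5 pluripotency markers to 20.09 to 20.33 and 20.01 to 21.22. Cdh1, Ptprc, Pou5f1 and Nanog were under 5.35 in every group. These levels differ between the genotypes that are compared below, and their part in the results was not tested, and on bulk RNA fewer cells of a type and less RNA per cell cannot be told apart.

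The mean level of the 214 Zfp genes over all arrays ran from 5.98 to 12.5, with a median of 8.11, and 100 of them lay under 8 while 25 reached 10. The highest mean belonged to Zfp622, a factor of large ribosomal subunit maturation, at 12.5. It was followed by Zfp207, which binds spindle microtubules and the checkpoint protein Bub3, by the BTB domain factor Zfp131, by the ubiquitin ligase Zfp91 and by Zfp367. Probe sets differ in brightness for the same amount of RNA, so this order is one of probe set levels. The median level of the 214 genes was 8.002 in untreated WT cells, 7.98 in WT cells under arsenite, 8.28 in untreated KO cells and 8.27 in KO cells under arsenite. Array by array it was 7.89 to 8.005 in the 6 WT arrays and 8.17 to 8.35 in the 6 KO arrays, without overlap, while the median of all genes lay between 6.61 and 6.75 on every array. The medians of the Zfp genes include the 49 kept through their higher groups alone, for which some difference came with the choice. Replicates agreed closely: the median SD of a gene over 3 arrays was 0.146, 0.147, 0.153 and 0.176 in the 4 groups in the order above. The widest spread in both KO groups was that of Zfp521, at 0.986 untreated and 1.06 under arsenite.

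In WT cells, 2 h of arsenite raised 18 of the 214 Zfp genes and lowered 7 at an adjusted p under 0.05 (limma, Benjamini-Hochberg over 20753 genes). Among all genes 1.65% rose and 0.477% fell, 2.12% in all. Among the 10368 genes that met the same level threshold 3.13% rose and 0.666% fell, 3.8% in all. Of the 165 genes with all means at the level, 15 rose and 3 fell, or 9.09% and 1.82%. The other 49, kept through their higher groups alone, gave 3 and 4, and for them some difference came with the choice. The median change of the 214 genes was -0.04, against -0.01 over all genes. With the replicate number as a block the counts were 29 up and 14 down. This compares with 3.09% and 1.79% of all genes and with 5.62% and 2.91% of those at the level. Without WT untreated replicate 2 or without WT arsenite replicate 1 the 25 calls became 16. Of the 214 genes, 46 were higher on all 3 arsenite arrays than on any untreated array and 35 were lower, where 9.84% and 10.6% of all genes were. Such array counts are set beside all genes only, here and below, and were not made for genes at the level.

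The largest rise in WT cells was that of Zfp948, which read 9.78, 9.55 and 9.14 untreated and 11.22, 11.11 and 10.76 under arsenite. Every treated array lay above every untreated one, and the change was 1.54 ± 0.26 on the log2 scale (SE, n = 3 a group, limma adjusted p = 0.00827). Zfp869 went from 8.17, 8.23 and 8.07 to 9.71, 9.48 and 9.30, a change of 1.34 ± 0.18 (adjusted p = 0.00238). Zfp655 read 9.68, 9.65 and 9.35 untreated and 10.85, 10.92 and 10.51 treated, a rise of 1.20 ± 0.13. Neither gene's groups overlapped. Both other probe sets of Zfp655 rose too, one by 0.29 and one by 2.26, so the size of its change differed widely with the probe set.

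Zfp367 stood at 11.14, 11.17 and 10.99 in untreated WT cells and at 12.40, 12.38 and 11.77 under arsenite. That is a rise of 1.08 ± 0.22 with an adjusted p of 0.0254, which lay between 0.0817 and 0.127 when any of 5 of the 6 WT arrays was left out; its other probe set rose by 1.30. Zfp248 had the tightest replicates of the named genes, at 6.81, 6.69 and 6.71 before and 7.82, 7.73 and 7.72 after, a rise of 1.02 ± 0.08 (limma adjusted p = 6.35e-05), and its second probe set above the dim level rose by 0.96. Zfp142 changed from 8.21, 8.28 and 8.42 to 9.29, 9.47 and 9.17, by 1.01 ± 0.16. Its probe set shares probes with other transcripts, and the 4 others of this gene above 5.35 changed by 0.12 to 0.88.

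Among the 7 genes that fell in WT cells, Zfp770 fell furthest, from 9.47, 9.67 and 9.17 to 7.99, 8.06 and 8.35. The groups did not overlap and the change was -1.30 ± 0.14 (limma adjusted p = 0.00055). Its second, dimmer probe set changed by -0.63. Zfp606 went from 6.73, 6.85 and 6.88 to 5.78, 5.85 and 5.46, a change of -1.13 ± 0.14, while its other 2 probe sets changed by only -0.12 and -0.18. Averaged over probe sets the change of Zfp606 was -0.48, with an adjusted p of 0.150, so this call rests on 1 probe set.

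Zfp58 read 7.64, 7.59 and 7.75 untreated and 6.58, 6.68 and 7.19 under arsenite, a fall of 0.84 on the log2 scale. Zfp87 read 7.20, 7.02 and 7.20 and then 6.42, 6.00 and 6.62, and Zfp748 read 8.39, 8.26 and 7.96 and then 7.48, 7.35 and 7.57. The treated and untreated arrays of all 3 genes were apart, with changes of -0.84 ± 0.17, -0.79 ± 0.14 and -0.74 ± 0.12 and adjusted p of 0.0231, 0.0111 and 0.00554. Zfp329 changed from 6.53, 6.64 and 6.67 to 6.03, 5.67 and 5.90, by -0.74 ± 0.16 (limma adjusted p = 0.0307, or 0.0508 for the mean over its probe sets). The calls of Zfp58, Zfp87 and Zfp329 were the least firm: without 1 array the adjusted p reached 0.116, 0.0577 and 0.154.

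**Figure D1:**
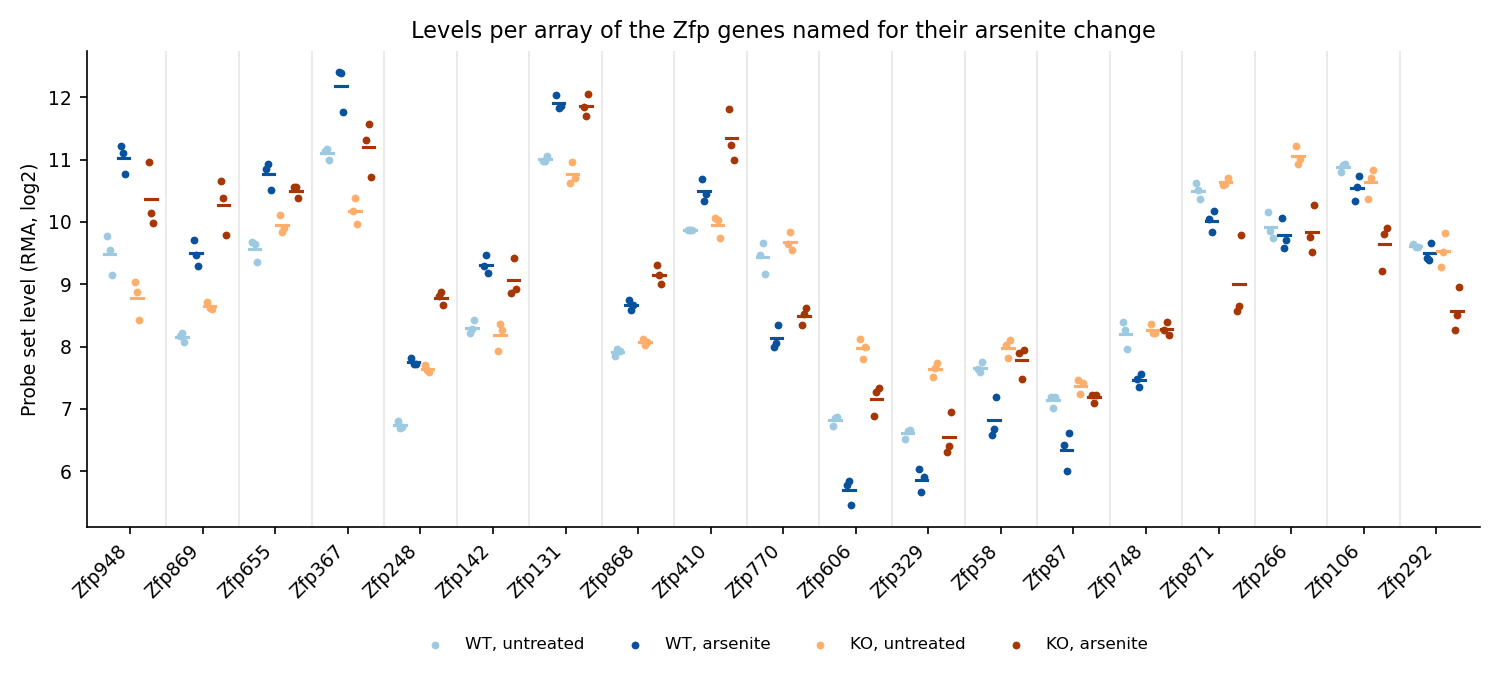
Level (RMA, log2) of the 19 Zfp genes named for their arsenite change, with 1 point per array and a bar at the mean of each group of 3. In the 9 genes on the left the dark arsenite points lie above the pale untreated points of the same genotype, from Zfp948 to Zfp410. In the 10 genes from Zfp770 on, the WT or the KO arsenite points lie below, as for Zfp748 in WT cells and Zfp266 in KO cells.

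RefSeq promoter windows of build GRCm38.p6, from 250 bases before to 50 bases after a transcript's start, were available for 173 of the 214 genes. The windows of Zfp948 and Zfp869, the strongest risers in both genotypes, of Zfp770, the strongest shared fall, and of Zfp618, the strongest difference between genotypes, are printed because the results turn on these genes. Capitals mark matches on either strand to the letters of 6 stress-related motifs: GAANNTTC (heat shock factor), TGANTCA (AP-1), the cAMP response element, TGATGNAA (ATF4), TGACNNNGC (antioxidant response element) and TGCGCNC (metal response element). Zfp948 lies at chr17:21566728-21567027 on the plus strand, Zfp869 at chr8:69716853-69717152 on the minus strand, Zfp770 at chr2:114201383-114201682 on the minus strand and Zfp618 at chr4:62965317-62965616 on the plus strand.
Zfp948: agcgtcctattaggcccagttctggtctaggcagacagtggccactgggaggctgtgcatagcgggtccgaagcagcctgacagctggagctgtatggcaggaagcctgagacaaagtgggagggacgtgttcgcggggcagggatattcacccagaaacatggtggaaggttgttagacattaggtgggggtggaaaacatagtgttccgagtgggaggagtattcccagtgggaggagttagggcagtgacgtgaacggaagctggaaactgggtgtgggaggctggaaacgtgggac
Zfp869: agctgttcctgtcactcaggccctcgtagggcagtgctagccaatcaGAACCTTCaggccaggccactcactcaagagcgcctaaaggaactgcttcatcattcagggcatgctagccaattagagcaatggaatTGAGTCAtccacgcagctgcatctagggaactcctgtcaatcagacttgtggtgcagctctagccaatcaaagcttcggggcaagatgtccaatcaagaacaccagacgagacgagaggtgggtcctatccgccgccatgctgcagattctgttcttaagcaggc
Zfp770: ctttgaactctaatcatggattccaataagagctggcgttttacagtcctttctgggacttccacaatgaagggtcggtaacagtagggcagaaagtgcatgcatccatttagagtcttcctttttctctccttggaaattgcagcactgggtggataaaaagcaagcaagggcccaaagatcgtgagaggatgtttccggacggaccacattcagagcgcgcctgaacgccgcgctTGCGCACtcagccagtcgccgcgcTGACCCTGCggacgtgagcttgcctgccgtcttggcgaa
Zfp618: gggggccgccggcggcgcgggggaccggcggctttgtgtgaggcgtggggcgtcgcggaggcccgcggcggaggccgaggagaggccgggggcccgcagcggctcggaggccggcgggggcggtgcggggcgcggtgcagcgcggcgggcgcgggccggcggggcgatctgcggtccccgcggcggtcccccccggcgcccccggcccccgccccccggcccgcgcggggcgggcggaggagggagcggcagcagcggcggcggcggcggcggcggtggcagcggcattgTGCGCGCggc

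The window of Zfp948 held none of the 6 motifs. That of Zfp869 held 1 heat shock factor match and 1 AP-1 match, that of Zfp770 an antioxidant response element and a metal response element, and that of Zfp618 a metal response element. Of the 19 windows of the 13 genes that rose in both genotypes and had one, 15.8% held the heat shock letters, against 7.86% of all 32851 windows and 9.35% of the 214 windows of Zfp genes. The AP-1 letters were in 5.26% of them, against 7.81% of all windows and 4.67% of the Zfp windows. The metal response letters were in 21.1%, against 15.4% and 19.2%, and the antioxidant response letters in 15.8%, against 12.4% and 16.4%. The cAMP response element was in 10.5% of the 19 windows, which is 2 windows, against 1.79% of all and 3.27% of the Zfp windows. The ATF4 letters were in 0 of the 19, against 3.97% and 0.935%. Of 2 general promoter motifs searched beside these, GGGCGG (SP1) was in 73.7% of the 19 windows, 50% of the Zfp windows and 35.7% of all, and CCGGAAG (ETS factors) in 10.5%, 19.2% and 8.86%. The GC content of the Zfp windows had a median of 57%, with 17 CpG dinucleotides, against 52.7% and 7 over all windows. In the 19 windows of the shared risers these medians were 64% and 25. These counts describe the letters of a 300-base window and are no evidence of binding.

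In KO cells arsenite raised 26 of the 214 Zfp genes and lowered 23. Over all genes 3.74% rose and 3.8% fell, 7.55% in all, and among genes at the same level 6.11% rose and 6.93% fell, 13% in all. Of the 165 genes with all means at the level, 22 rose and 21 fell, and of the other 49, 4 rose and 2 fell. The members' median was -0.04, against 0.03 over all genes. Under the replicate block 39 rose and 42 fell, against 6.63% and 8.07% of all genes and 9.95% and 14.7% of those at the level. Without KO arsenite replicate 1 the 49 calls became 29. A fit to the 6 KO arrays alone called 20. All 3 treated arrays were above all untreated ones for 47 genes and below them for 46, against 14% and 9.68% of all genes.

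Zfp869 rose most in KO cells, from 8.72, 8.62 and 8.61 to 10.66, 10.39 and 9.78, a change of 1.63 ± 0.18 (limma adjusted p = 0.000387). Zfp948 moved from 9.04, 8.88 and 8.43 to 10.97, 10.14 and 9.98, by 1.58 ± 0.26. Zfp410, the activator of the chromatin remodeller gene Chd4, read 10.06, 10.03 and 9.74 untreated and 11.81, 11.23 and 10.99 treated. Its rise of 1.40 ± 0.18 had an adjusted p of 0.000804, and a second probe set rose by 1.12. In WT cells Zfp410 read 9.87, 9.87 and 9.87 and then 10.68, 10.33 and 10.45, a change of 0.62 whose adjusted p was 0.144, or 0.0341 with the replicate block. Chd4 itself changed by 0.01 ± 0.11 in WT cells and by -0.07 ± 0.11 in KO cells, within its error.

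Zfp248 again had tight replicates in KO cells, at 7.71, 7.62 and 7.60 untreated and 8.81, 8.87 and 8.67 under arsenite, a rise of 1.14 ± 0.08 (limma adjusted p = 1.41e-05). Zfp131 read 10.63, 10.97 and 10.70 and then 11.84, 11.70 and 12.05, a rise of 1.10 ± 0.12. Zfp868, the neighbour of Zfp869, read 8.12, 8.03 and 8.07 and then 9.31, 9.14 and 9.01, a rise of 1.08 ± 0.09. The treated arrays of each of these 3 genes were above all of their untreated ones, as they were in WT cells, where Zfp131 rose by 0.90 and Zfp868 by 0.76.

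The deepest fall in KO cells was that of Zfp871, from 10.59, 10.62 and 10.71 to 8.57, 8.65 and 9.79, a change of -1.63 ± 0.25 (limma adjusted p = 0.00271). Treated replicate 3 lay more than 1 log2 unit above the other treated arrays. One further probe set of Zfp871 changed by -1.50, but another rose by 0.81. Zfp266 showed the same split: the brightest probe set went from 11.22, 10.94 and 11.01 to 9.75, 9.51 and 10.27, a change of -1.21 ± 0.19, with -1.09 and -2.10 on 2 others and 1.00 on a further one. For both genes the direction thus differed between probe sets.

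Zfp770 fell in KO cells from 9.64, 9.84 and 9.55 to 8.34, 8.52 and 8.61, by 1.19 on the log2 scale, and Zfp329 from 7.51, 7.66 and 7.74 to 6.31, 6.40 and 6.94, by 1.09. The RNA-binding protein gene Zfp106 read 10.37, 10.71 and 10.82 untreated and 9.21, 9.81 and 9.90 treated, a change of -0.99 ± 0.18. Zfp292 read 9.28, 9.52 and 9.81 and then 8.26, 8.50 and 8.96, a change of -0.96 ± 0.17. No treated array of these 4 genes reached an untreated one. The other probe sets of Zfp292 above 5.35 changed by -0.55 to -0.63, but those of Zfp106 by only -0.14 to -0.46, and the mean over the probe sets of Zfp106 was not called (adjusted p = 0.263). In the fit to the KO arrays alone, Zfp871, Zfp106 and Zfp292 had adjusted p of 0.055, 0.0701 and 0.0751.

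**Figure D2:**
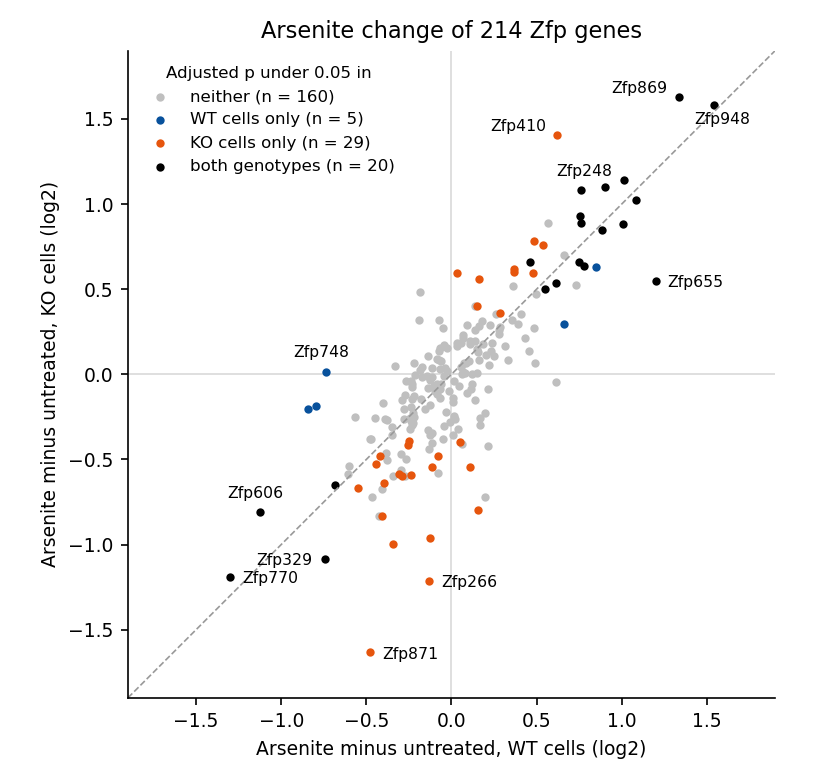
Change under arsenite (log2) in WT cells on the horizontal axis and in KO cells on the vertical axis for the 214 Zfp genes, coloured by the genotype in which the adjusted p was under 0.05; the dashed line marks equal changes. The 20 black points called in both genotypes lie in the upper right and lower left, and none lies in the upper left or lower right. Zfp871, Zfp266 and Zfp410 stand off the line on the KO side and Zfp748 and Zfp655 on the WT side.

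The 2 responses come from different arrays and could be set side by side. Of the 18 genes that rose in WT cells, 16 also rose in KO cells, which is 88.9% of the WT list and 61.5% of the 26 in the KO list. Of the 7 that fell in WT cells 4 fell in KO cells, 57.1% of the WT list and 17.4% of the KO list. No gene was called in opposite directions. These lists include genes among the 49 kept through their higher groups alone. Over the 214 genes, which share the arrays and the normalization, the changes in the 2 genotypes had a Pearson correlation of 0.80. Overlap and correlation were not made for all genes, so whether such agreement is particular to Zfp genes was not tested. The shared risers were Zfp948, Zfp869, Zfp248, Zfp367, Zfp131, Zfp142, Zfp868, Zfp655, Zfp438, Zfp719, Zfp821, Zfp654, Zfp715, Zfp959, Zfp513 and Zfp622, with means of both changes from 1.56 down to 0.53. Zfp770, Zfp606, Zfp329 and Zfp866 fell in both, with means from -1.24 to -0.67.

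Several genes looked different between genotypes, but no difference of the responses passed. At an adjusted p under 0.05 limma called 0 of 214 Zfp genes, with 24 at an unadjusted p under 0.05, 0 with the replicate block and a background of 0.0337% of all genes and 0.0579% of those at the level. The lowest adjusted p was 0.284, for Zfp748, which changed by -0.74 in WT cells and by 0.02 in KO cells. Zfp748 read 8.36, 8.21 and 8.22 in untreated KO cells and 8.26, 8.39 and 8.19 in treated ones, which overlap. For Zfp266 the difference was -1.08 ± 0.27 (adjusted p = 0.369) and for Zfp871 it was -1.15 ± 0.36 (adjusted p = 0.58). Without KO arsenite replicate 3 the difference of Zfp871 alone passed (adjusted p = 0.00383).

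In untreated cells, 74 of the 214 Zfp genes were higher in KO than in WT cells and 9 were lower. Among all genes 9.83% were higher and 10.3% lower, 20.1% in all, and among genes at the same level 16.9% and 17.3%, 34.3% in all. The 74 and 9 amount to 34.6% and 4.21% of the Zfp genes. Without the level threshold, 94 of all 302 Zfp genes were higher and 10 lower, or 31.1% and 3.31%. The median difference was 0.24 over the 214 genes and 0.23 over the 302, against -0.01 over all genes, and 156 of 214 differences were above 0. Over the 165 genes with all means at the level the median was 0.18, and 111 differences were above 0. All KO arrays lay above all WT arrays for 102 genes and below them for 18, against 16.5% and 18% of all genes. The 165 genes with all means at the level gave 47 higher and 7 lower, or 28.5% and 4.24%. The other 49, kept through their higher groups alone, gave 27 and 2, and for them some difference came with the choice. The 195 whose brightest probe set is not marked as shared with other transcripts gave 69 and 7.

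**Figure D3:**
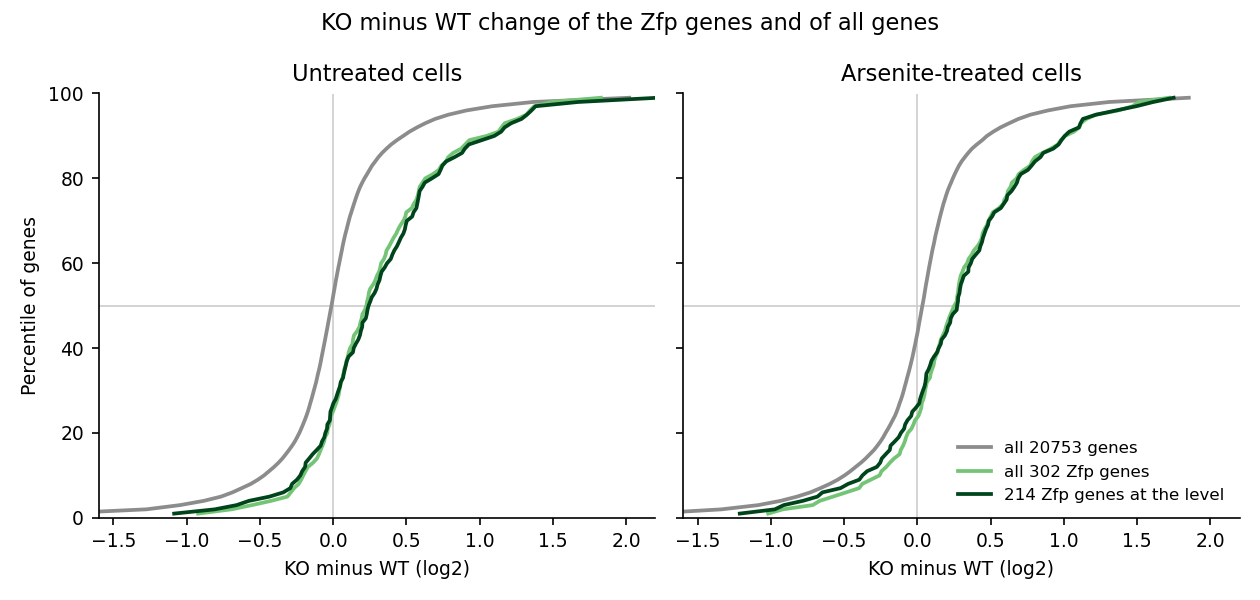
Percentile curves of the KO minus WT difference (log2) in untreated cells on the left and arsenite-treated cells on the right, for the 214 Zfp genes, all 302 Zfp genes and all 20753 genes. The Zfp curves lie to the right of the curve of all genes over most of the range, and at the median they stand at 0.24 and 0.23 untreated against -0.01.

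Among genes higher in KO cells, the widest differences belonged to Zfp618, Zfp810 and Zfp608, which are among the 49 kept through their higher groups alone. The widest was that of Zfp618, whose protein binds UHRF2, a reader of hydroxymethylated DNA. It read 4.61, 5.18 and 5.04 in untreated WT cells and 8.62, 8.55 and 8.95 in untreated KO cells, a difference of 3.76 ± 0.21 (limma adjusted p = 3.58e-07). The WT mean of 4.94 lies under 5.35, the 40th percentile of all array values, so the size of the difference is uncertain. Of its other 3 probe sets, 2 differed by 3.01 and 2.07 and one by 0.20. Zfp810 read 6.03, 5.46 and 6.56 against 8.58, 7.94 and 8.83, a difference of 2.43 ± 0.30. Zfp608, a repressor of the recombination genes Rag1 and Rag2 in developing T cells, read 6.33, 6.81 and 7.07 against 9.10, 8.68 and 9.28. It was 2.28 ± 0.22 higher, and by 1.44 on its second probe set.

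Zfp647 and Zfp422 were at the level in every group, whereas Zfp799 had a mean under 7 in WT cells under arsenite. Zfp647 read 8.21, 7.86 and 8.08 in untreated WT and 9.97, 9.70 and 9.80 in untreated KO cells. Zfp422 read 8.90, 8.60 and 8.81 against 10.66, 10.43 and 10.44, and Zfp799 read 7.75, 7.38 and 7.39 against 9.14, 8.66 and 9.20. The genotypes did not overlap in any of the 3, and the differences were 1.77 ± 0.21, 1.74 ± 0.14 and 1.49 ± 0.26 (limma adjusted p = 0.000136, 5.58e-06 and 0.00154).

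Of the 9 genes that were lower in KO cells, Zfp521 differed most. This inhibitor of the transcription factor EBF1 read 8.20, 8.25 and 8.90 in untreated WT cells and 5.52, 4.92 and 6.84 in untreated KO cells. The genotypes did not overlap, but the KO arrays spread over almost 2 log2 units, and the difference of -2.69 ± 0.52 had an adjusted p of 0.00334. On the second probe set of Zfp521 the difference was smaller, at -1.43. Zfp105 read 7.04, 6.90 and 6.85 against 5.23, 4.53 and 4.69, a difference of -2.11 ± 0.20 whose KO mean of 4.82 is again under 5.35. Zfp7 read 8.68, 8.80 and 8.52 against 7.35, 7.95 and 7.37, a difference of -1.11 ± 0.19. Zfp7 lies in a run of neighbours with Zfp647, which differed in the opposite direction.

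Zfp367, a gene that arsenite raised in both genotypes, read 10.18, 10.39 and 9.97 in untreated KO cells, below all 3 untreated WT arrays, a difference of -0.92 ± 0.22 (limma adjusted p = 0.0112, or 0.0926 for the mean over its probe sets). Zfp764 differed by -0.84 ± 0.11, from 8.26, 8.36 and 8.29 in WT to 7.67, 7.29 and 7.40 in KO cells. Its only probe set may hybridise to related transcripts. Zfp91, a ubiquitin ligase that acts on the kinase NIK in noncanonical NF-kB signalling, read 11.80, 11.70 and 11.86 against 11.24, 11.08 and 10.95. The difference was -0.70 ± 0.10, and its other probe sets above 5.35 differed by -0.21 and -1.06.

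**Figure D4:**
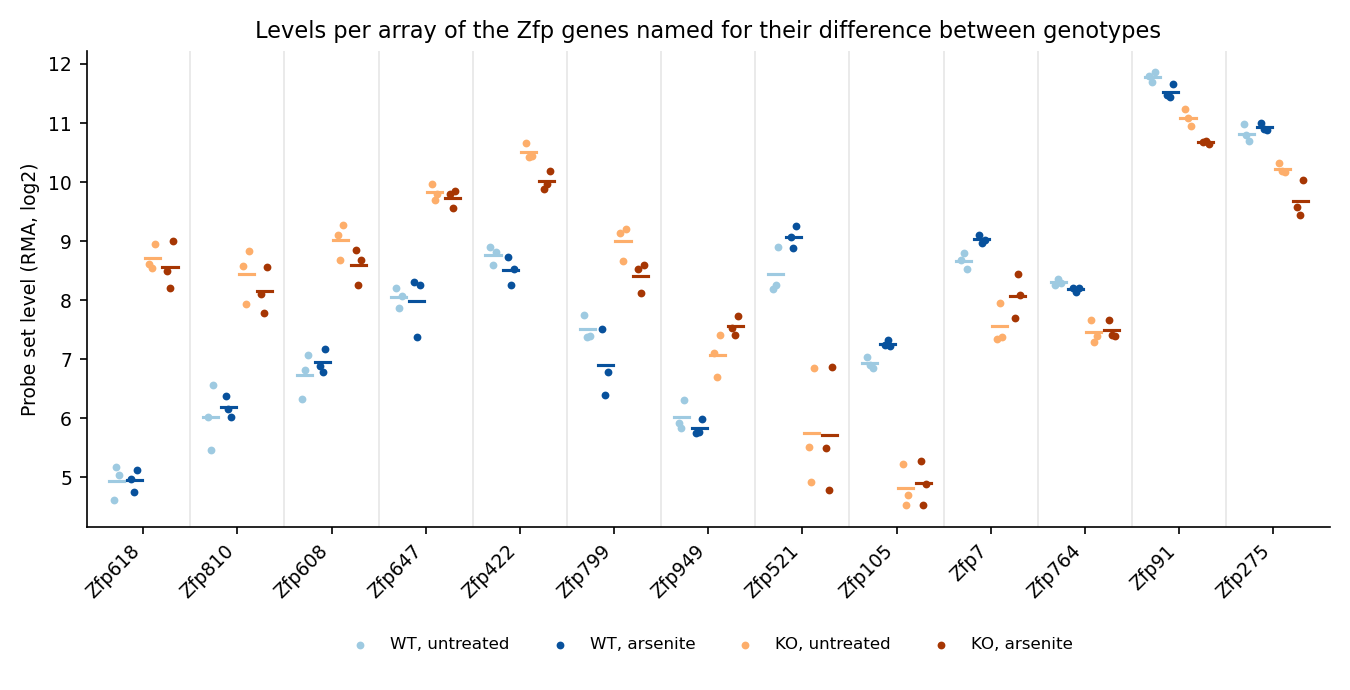
Level (RMA, log2) of 13 of the 15 Zfp genes named for their difference between genotypes, with 1 point per array and a bar at each group mean of 3. The KO points lie above the WT points in the 7 genes from Zfp618 to Zfp949 and below them in the 6 from Zfp521 to Zfp275, and the KO points of Zfp521 are spread most widely. Zfp367 and Zfp871, also lower in KO cells where named, are drawn among the genes named for arsenite.

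Under arsenite 82 of the 214 Zfp genes were higher in KO than in WT cells and 16 lower, where 10.3% of all genes were higher and 10.8% lower, 21.1% in all. Of the genes at the level 17.5% were higher and 19% lower, 36.5% in all. Of all 302 Zfp genes 105 were higher and 18 lower. The 165 genes with all means at the level gave 50 higher and 14 lower. The median difference was 0.27 over the 214 genes and 0.16 over those 165, against 0.03 over all genes. Leaving out WT arsenite replicate 2 brought the 98 calls to 64. The untreated and the treated comparison share no arrays. Of the 74 genes higher untreated 61 were higher under arsenite, 82.4% of the first list and 74.4% of the second, and 8 genes were lower in both, 88.9% and 50% of the lists. No gene was called in opposite directions, and the differences correlated at 0.90 over the 214 genes. These lists and the correlation include the 49 genes kept through their higher groups alone, for which some difference came with the choice. Neither was made for all genes, so whether such agreement is particular to Zfp genes was not tested. All KO arrays were above all WT arrays for 99 genes and below for 28, against 18.6% and 15.7% of all genes.

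Most of the large differences recurred under arsenite. Zfp618 read 4.97, 4.76 and 5.12 in treated WT cells and 8.49, 8.20 and 9.01 in treated KO cells, 3.62 ± 0.21 apart (limma adjusted p = 5.34e-07). Its treated WT mean of 4.95 was again under 5.35. Zfp521 read 9.06, 8.88 and 9.26 against 5.49, 4.79 and 6.87, a difference of -3.35 ± 0.52. Zfp810, Zfp647, Zfp608 and Zfp799 were higher in KO cells by 1.97, 1.75, 1.64 and 1.51, and Zfp105, Zfp367 and Zfp7 lower, with differences of -2.36, -0.98 and -0.95. The treated KO mean of Zfp105 was 4.90, under 5.35. None of these 9 genes had treated KO and WT arrays that overlapped.

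Some genes were named under arsenite alone. Zfp949 read 5.75, 5.77 and 5.99 in treated WT cells and 7.52, 7.40 and 7.74 in treated KO cells, a difference of 1.72 ± 0.18, after 1.05 ± 0.18 untreated. Its second probe set differed by 0.68 under arsenite and 0.57 untreated. Zfp275 read 11.01, 10.89 and 10.88 against 9.59, 9.44 and 10.03, a difference of -1.24 ± 0.14, after -0.59 ± 0.14 untreated. Zfp871 was 1.02 lower on the log2 scale, with a difference of -1.02 ± 0.25 (limma adjusted p = 0.0137), where untreated cells gave 0.14 ± 0.25. This last call had an adjusted p of 0.0547 without KO arsenite replicate 1 and 0.0537 without WT arsenite replicate 3. It was 0.0573 for the mean over probe sets and 0.0684 in the fit to the treated arrays alone, and another probe set of the gene differed by 0.44.

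Of a list of 36 Zfp genes chosen for a known role, 29 were among the 214. In WT cells 1 of the 29, Zfp622, was called higher under arsenite and 0 lower, 3.45% against 3.8% of all genes at the level, with 7 at an unadjusted p under 0.05. Zfp622 read 12.23, 12.46 and 12.42 untreated and 12.90, 13.02 and 12.86 treated, a rise of 0.55 ± 0.11 (limma adjusted p = 0.0237). Its 2 other bright probe sets rose by 0.62 and 0.63. In KO cells 4 of the 29 rose and 5 fell, 31% in all, against 6.11% and 6.93% of the genes at the level. The risers were Zfp410, Zfp622, Zfp384 and Zfp335. Zfp384, a factor that binds promoters of matrix metalloproteinase genes, read 10.08, 10.21 and 10.29 and then 11.15, 10.85 and 10.92, a rise of 0.78 ± 0.13. Those that fell were Zfp106, Zfp292, Zfp451, Zfp217 and Zfp91. Zfp451, a SUMO ligase, read 9.64, 9.80 and 9.67 and then 8.55, 8.97 and 9.20, a change of -0.80 ± 0.18 (limma adjusted p = 0.0202). Of its other probe sets above 5.35, 2 changed by -1.28 and -0.96 and one rose by 0.40.

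Between untreated genotypes 6 of the 29 were higher in KO cells and 3 lower, 31% in all, which is near the 34.3% of genes at the level. Zfp260, a partner of the heart factor GATA4, read 9.27, 8.98 and 9.15 in WT and 10.65, 10.23 and 10.44 in KO cells, 1.31 ± 0.20 apart. Zfp462, Zfp219, Zfp451, Zfp746 and Zfp281 were higher by 0.93, 0.61, 0.58, 0.54 and 0.42; Zfp746 is the repressor PARIS, which acts on the gene of PGC-1 alpha. The 3 lower genes were Zfp521, Zfp91 and Zfp598. Zfp598, the ubiquitin ligase that marks collided ribosomes, read 9.50, 9.49 and 9.69 in untreated WT cells and 8.83, 9.17 and 8.88 in untreated KO cells. No KO array of Zfp598 reached a WT array, and the difference was -0.60 ± 0.11 (limma adjusted p = 0.00213). Under arsenite it was -0.38 ± 0.11, and arsenite itself changed Zfp598 by -0.04 ± 0.11 in WT and 0.17 ± 0.11 in KO cells. Zfp207, Zfp143, a factor of small nuclear RNA genes, Zfp568, a KRAB repressor of Igf2, and Zfp809, a KRAB protein that silences retroviruses, passed in none of the 4 comparisons. Zfp568 varied with the array: in WT cells under arsenite it read 9.03, 9.26 and 10.13.

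The corepressors that KRAB proteins work with were looked at beside them, as a list of 24 genes of which 23 were measured. Under arsenite limma called 0 of them in WT cells, with 2 at an unadjusted p under 0.05. These were Morc2a, with a change of 0.27 ± 0.10, and Cbx5, the gene of heterochromatin protein 1 alpha, with -0.36 ± 0.16. In KO cells Cbx5 and Hdac2 fell, 8.7% of the list against 13% of genes at the level. The difference of responses of Cbx5 was not called (limma adjusted p = 0.964). Between untreated genotypes 5 were higher in KO cells and 2 lower, 30.4% in all, near the 34.3% of genes at the level. Trim28, the common partner of KRAB domains, read 11.66, 11.76 and 11.75 in WT and 12.30, 12.52 and 12.45 in KO cells, 0.70 ± 0.09 apart (limma adjusted p = 0.000175). Setdb1 was 0.62 ± 0.09 higher, and Chd3, Smarcad1 and Mphosph8 by 1.40, 0.89 and 0.75. The histone deacetylase gene Hdac2 went the other way, from 12.71, 12.69 and 12.55 to 11.59, 11.73 and 11.59, a difference of -1.01 ± 0.09. Pphln1 was lower too, with a difference of -0.36 ± 0.11 (limma adjusted p = 0.0359). Over the 23 genes the median difference was 0.13. Under arsenite 5 of the 23 were higher in KO cells and 5 lower, against 17.5% and 19% of genes at the level. The lower ones were Hdac2, Morc3, Cbx5, Pphln1 and Hdac1, and the median difference over the 23 was 0.03.

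Zfp genes often neighbour each other, and RefSeq's order of protein-coding genes placed 114 of 213 located Zfp genes in 28 runs, counting genes with at most 5 others between them. No member lay within 30 genes of the targeted Ppp1r15a. The longest run, the 15 genes from Zfp160 to Zfp945, was uneven: Zfp53, Zfp52, Zfp760, Zfp229 and Zfp820 were higher in untreated KO cells and the other 10 were not called, where 34.6% of the 214 and 16.9% of all genes at the level were higher. Within it Zfp948 was the only gene called under arsenite in either genotype, and the run's median arsenite change was 0.06 in WT cells. In the run of 12 from Zfp84 to Zfp146, 7 genes were higher in untreated KO cells and 0 lower, and all 12 differences were above 0, from 0.03 to 1.37 with a median of 0.61. This run includes genes kept through their higher groups alone, for which some difference came with the choice. The other probe sets of Zfp84 above 5.35 differed by only -0.17 and 0.05.

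Smaller runs also moved together or apart. Zfp422, Zfp637 and Zfp239, which are neighbours, were all higher in untreated KO cells, by 1.74, 1.15 and 1.17. In the 8 genes from Zfp712 to Zfp493 lay Zfp58, Zfp87 and Zfp748, 3 of the 7 genes that fell under arsenite in WT cells, and these 3 stand side by side in the list of members. None of the 8 was called in KO cells, yet the run's median arsenite change was -0.20 there and -0.23 in WT cells. No difference of responses was called in this run. The 5 genes from Zfp930 to Zfp866 held both directions: Zfp868 and Zfp869 rose in both genotypes, while Zfp866 read 7.89, 7.79 and 8.11 in untreated and 7.39, 7.06 and 7.28 in treated WT cells, a change of -0.68 ± 0.12. Genes of such runs can be near copies of each other whose transcripts may share probes, and the part of shared probes in these patterns was not tested.

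**Figure D5:**
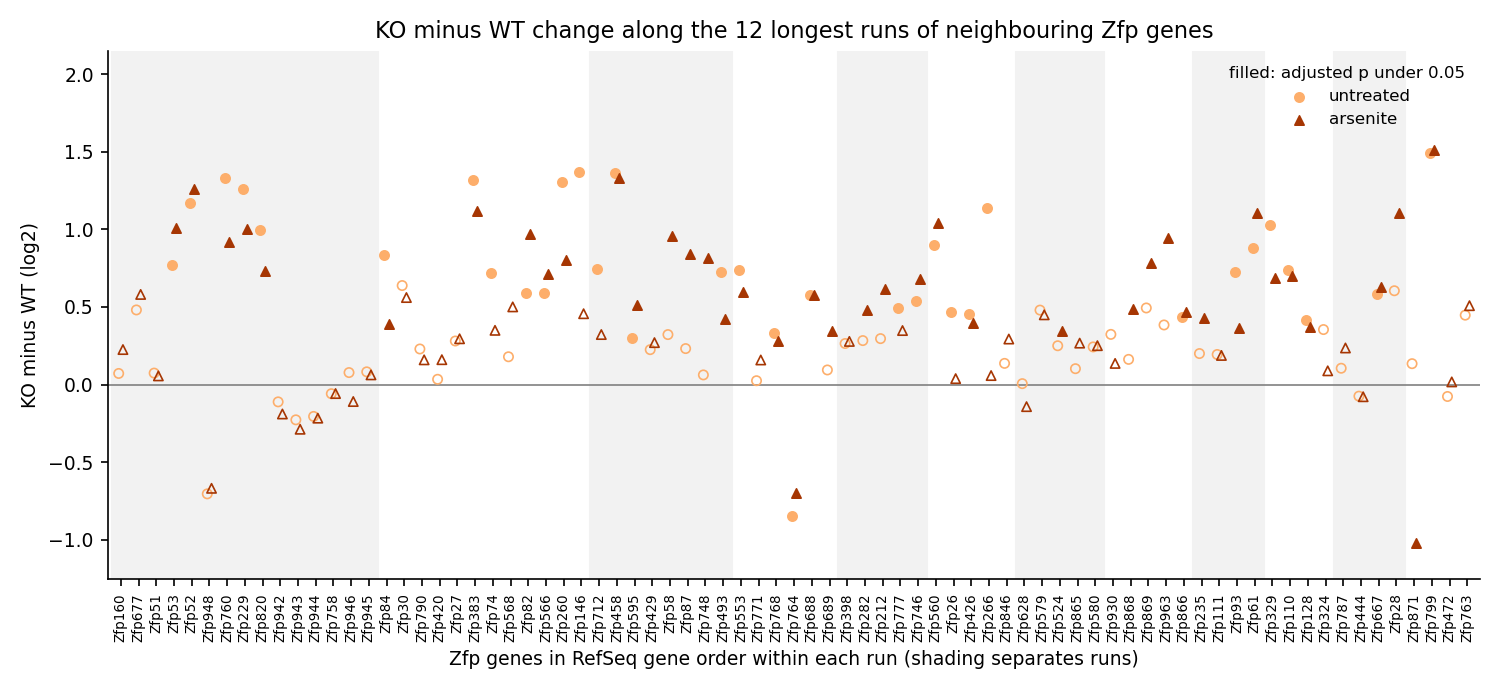
KO minus WT difference (log2) of each Zfp gene in the 12 runs of at least 4 neighbours, in RefSeq gene order within a run, for untreated cells (circles) and arsenite-treated cells (triangles); filled symbols have an adjusted p under 0.05. In the run from Zfp84 to Zfp146 every symbol lies above 0. In the first run filled circles between Zfp53 and Zfp820 stand among open ones, which reach down to -0.70.

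Genes with several probe sets allowed a check within the gene, and 123 of the 214 had more than 1. For the genes called under arsenite in WT cells, all 16 further probe sets above 5.35 changed in the direction of the brightest one, and 10 by at least 50% of its change. In KO cells 40 of 45 agreed in direction and 26 in that size. For the untreated difference between genotypes 44 of 46 agreed in direction and 35 in size, and under arsenite 56 of 61 and 41. The genes with a probe set of the opposite sign were Zfp266, Zfp871, Zfp451, Zfp84 and Zfp182 for arsenite in KO cells, Zfp84 and Zfp719 for the untreated genotypes, and Zfp106, Zfp871, Zfp277 and Zfp719 for the genotypes under arsenite.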

How the data were processed

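RNA of 12 samples was hybridised to Affymetrix mouse arrays, 1 array a sample. The authors deposited log2 values per probe set normalized by RMA, named in the submitters' processing notes; the deposited table also holds the authors' group means, log2 fold changes and p-values. The means served to match columns to groups, and the authors' p-values, whose test the file headers do not name, give no result here. No source used here names the annotation release behind its gene symbols. A second deposited table of 26382 probe sets, also log2 values, was used only as an alternative grouping: in 10 of its 12 columns the values are those of another array than the label names. Depth has no counterpart on arrays, and precision is limited by the 3 arrays in each of 4 groups.

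From the values, 38130 of 45101 probe sets with 1 gene symbol gave 20753 genes, each read from its probe set with the highest mean. 1 limma model (version 3.58.1, R 4.3.3; lmFit and eBayes, 4 groups, 8 residual degrees of freedom) was fitted over all genes with two-sided tests and Benjamini-Hochberg adjustment at 0.05; the fit was tested on simulated data. Changes are given in log2 ± SE. The labels number the replicate experiments. Deviations from the group means correlated between same-numbered arrays at 0.231 to 0.738 in all 18 pairs and between other arrays at -0.575 to -0.0106 in 36, so the numbers pair the arrays and a fit with the number as a block was run as an alternative. Others were another scaling, the mean over probe sets, leaving out arrays, dim or shared probe sets, and other thresholds.

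The members and gene lists were chosen with earlier results of these data known. Named genes are the up to 6 largest rises and falls past the threshold in each comparison, the brightest genes, the role list and the genes beside the level threshold; Zfp58's neighbours, Zfp866, Zfp637 and Zfp239 were named for their place in runs, and Chd4 was chosen after its values were seen. All 214 members matched RefSeq by gene number; the files' symbols were kept for 3 since renamed. 9 further Zfp symbols stand only on probe sets of several genes and were not used here. Promoters are RefSeq's, build GRCm38.p6. A grouping by protein domains was not analysed here.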

Additional observations from a re-analysis of the deposited data

How the results depend on the processing

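Over the alternatives run, calls of the 214 Zfp genes moved by more than 1.5 times as follows. With the replicate block, 43 were called in WT cells under arsenite in place of 25 and 81 in KO cells in place of 49. These are 20.1% and 37.9%, against 8.54% and 24.6% of genes at the level. In the 2 comparisons of genotypes the block called 109 and 124. That is 50.9% and 57.9%, near the 49% and 51.2% of genes at the level. Of these, 94 and 99 were higher in KO cells and 15 and 25 lower. The block changed none of the 48 named calls. At an adjusted p under 0.01 the counts were 15 (WT arsenite), 26 (KO arsenite), 54 (KO minus WT untreated) and 56 (KO minus WT under arsenite). A fit to the KO arrays alone gave 20 for KO arsenite. A level threshold of 8 gave 63 for KO minus WT under arsenite, but it kept 145 genes in place of 214. Leaving out 1 array gave 16 to 27 for WT arsenite, 29 to 49 for KO arsenite, 65 to 84 for KO minus WT untreated, 64 to 95 for KO minus WT under arsenite and 0 to 1 for the difference of responses.

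Grouping the arrays by the labels of the shorter table called 0 in each of the 5 comparisons. Under those labels 8 named values changed sign: Zfp58 0.084, Zfp87 0.085 and Zfp748 0.044 in WT arsenite, Zfp871 0.28, Zfp266 0.26, Zfp329 0.019 and Zfp292 0.17 in KO arsenite, and Zfp871 0.40 in KO minus WT under arsenite; the other 40 lost their call. Those labels put most arrays into other groups, so this setting mixes the groups by construction. Of 576 named values with 1 array left out, 556 kept their call and 20, over 5 results, lost it. The mean over probe sets ended 5 named calls (Zfp606 and Zfp329 in WT arsenite, Zfp106 in KO arsenite, Zfp367 untreated, Zfp871 in KO minus WT under arsenite). The fit to the compared arrays alone ended 4 (Zfp871, Zfp106 and Zfp292 in KO arsenite, Zfp871 in KO minus WT under arsenite). The threshold of 0.01 ended 6 (Zfp58, Zfp87, Zfp329 and Zfp367 in WT arsenite, Zfp367 untreated, Zfp871 in KO minus WT under arsenite). The cause was not tested. Re-scaling, median centring and leaving out shared or dim probe sets kept direction and call of all named values they could test. The self-test recovered too few small changes for a gene without a call to be read as unchanged.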
